A study of Rattus with 6 samples.

Results

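Translation initiation factors are the proteins that assemble a ribosome on the start codon of an mRNA. eIF2 carries the initiator tRNA to the small ribosomal subunit, with eIF1, eIF1A, eIF3 and eIF5 bound beside it. The cap complex eIF4F, made of the cap-binding protein eIF4E, the scaffold eIF4G and the RNA helicase eIF4A, brings the mRNA. The pathway is braked at eIF2, whose recycling by eIF2B is blocked when stress kinases phosphorylate its alpha subunit, and at eIF4E, which the 4E-binding proteins hold while mTORC1 is inactive. Fibroblasts of the heart, which make and secrete the collagenous matrix, depend on this machinery for protein output.

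The genes described here are the protein-coding genes of the count table whose symbol starts with Eif1 to Eif6, without the eIF2 kinases (symbols starting with Eif2ak). There were 50 of them among 21378 genes. They were picked by name, not by any measured value, though with earlier results of these data known. The names take in some genes that are not initiation factors in the strict sense, such as Eif5a and Eif5a2, whose products act mainly in elongation, and Eif1ad. RNA was measured by poly(A)-selected sequencing in rat cardiac fibroblasts from a commercial supplier, in 3 libraries titled siNONO, from cells given an siRNA against Nono by Lipofectamine, and 3 libraries titled siCtrl. An empty vector is named in the labels of the siCtrl cells too, so it is unclear whether they got a control siRNA, and neither age, sex nor strain of the donor animals is given in the sources used here. Cells for RT-qPCR and blots were taken at 48 h, per the labels, which give no time for the sequenced cells. They do not say whether the replicates were separate cultures, so p-values measure the spread between these libraries, which may be technical.

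Nono, a nuclear RNA-binding protein of paraspeckles, was at 69.9, 76.1 and 73.6 CPM in the siNONO libraries and at 237, 233 and 247 CPM in the siCtrl libraries (CPM is the TMM-scaled share of a library's counts that a gene takes). That is a log2 fold change, siNONO minus siCtrl, of -1.70 ± 0.05 (SE; edgeR quasi-likelihood adjusted p = 4.57e-11). Total counts ran from 29692746 to 33365588 in siNONO and from 27792357 to 32869992 in siCtrl. The fibroblast label was met by its markers, with Col1a1, a chain of collagen I, at a mean of 14760.2 CPM in siNONO and 15859 CPM in siCtrl. Of all genes tested, 16.2% were raised and 15.9% lowered (edgeR adjusted p under 0.05), the shares against which the counts of each marker list are read. Of 12 fibroblast markers tested, 1 was raised and 5 were lowered (summed 35035 to 35930.5 CPM in siNONO and 36312 to 39041 CPM in siCtrl). Macrophage and leukocyte markers summed to 1408 to 1513 CPM in siNONO and 1487 to 1661 CPM in siCtrl, with 0 of 11 raised and 4 lowered. Pericyte and smooth muscle markers summed to 905 to 945 CPM in siNONO and 1644 to 1687 CPM in siCtrl, with 1 of 10 raised, 6 lowered and Rgs5 near 0. Endothelial markers summed to 19.6 to 20.9 CPM in siNONO and 17.5 to 18.7 CPM in siCtrl (1 of 5 raised, 0 lowered; Kdr and Emcn near 0). Cardiomyocyte markers summed to 109 to 118 CPM in siNONO and 145 to 162 CPM in siCtrl, nearly all of it Tnnt2, with 0 of 3 raised, 1 lowered and Actc1, Myh6 and Ryr2 near 0. The part of these cells in the values below was not tested, and in bulk libraries fewer cells of a type and less RNA per cell cannot be told apart.

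Knockdown of Nono went with small changes of initiation factor mRNAs in both directions. Of the 50 genes, 49 had enough counts to be tested, and 8 rose and 11 fell at an adjusted p threshold of 0.05 (edgeR quasi-likelihood test, Benjamini-Hochberg over all 14412 genes tested). That is 16.3% raised and 22.4% lowered. Of all genes tested, 32.1% were called, 16.2% raised and 15.9% lowered, so the raised share of the initiation factors was near that of all genes and the lowered share somewhat above it. The log2 fold changes ran from -0.66 to 0.25, with a median of -0.04 against 0.00 over all genes tested. Every siNONO library lay above every siCtrl library for 13 of the 49 (22.9% of all genes tested) and below for 15 (22.1% of all genes tested), 28 without overlap in all (45% of all genes tested). Only Eif5a2, Eif4g2 and Eif1 were called with a log2 fold change of at least 0.3 in size, which 15.7% of all genes tested were. The genes that fell were Eif5a2, Eif4g2, Eif1, Eif4ebp2, Eif3f, Eif3l, Eif3m, Eif2b3, Eif3h, Eif2b5 and Eif4ebp1. Those that rose were Eif4a1, Eif2b2, Eif1ad, Eif3a, Eif4g1, Eif6, Eif5b and Eif1a. The summed share of the 50 genes in all counts was 0.873%, 0.863% and 0.875% in siNONO and 0.864%, 0.866% and 0.860% in siCtrl. The means of 0.870% ± 0.00625 in siNONO and 0.864% ± 0.00311 in siCtrl (SD, n = 3 each) did not differ beyond the spread (exact two-sided permutation p = 0.3).

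**Figure D1:**
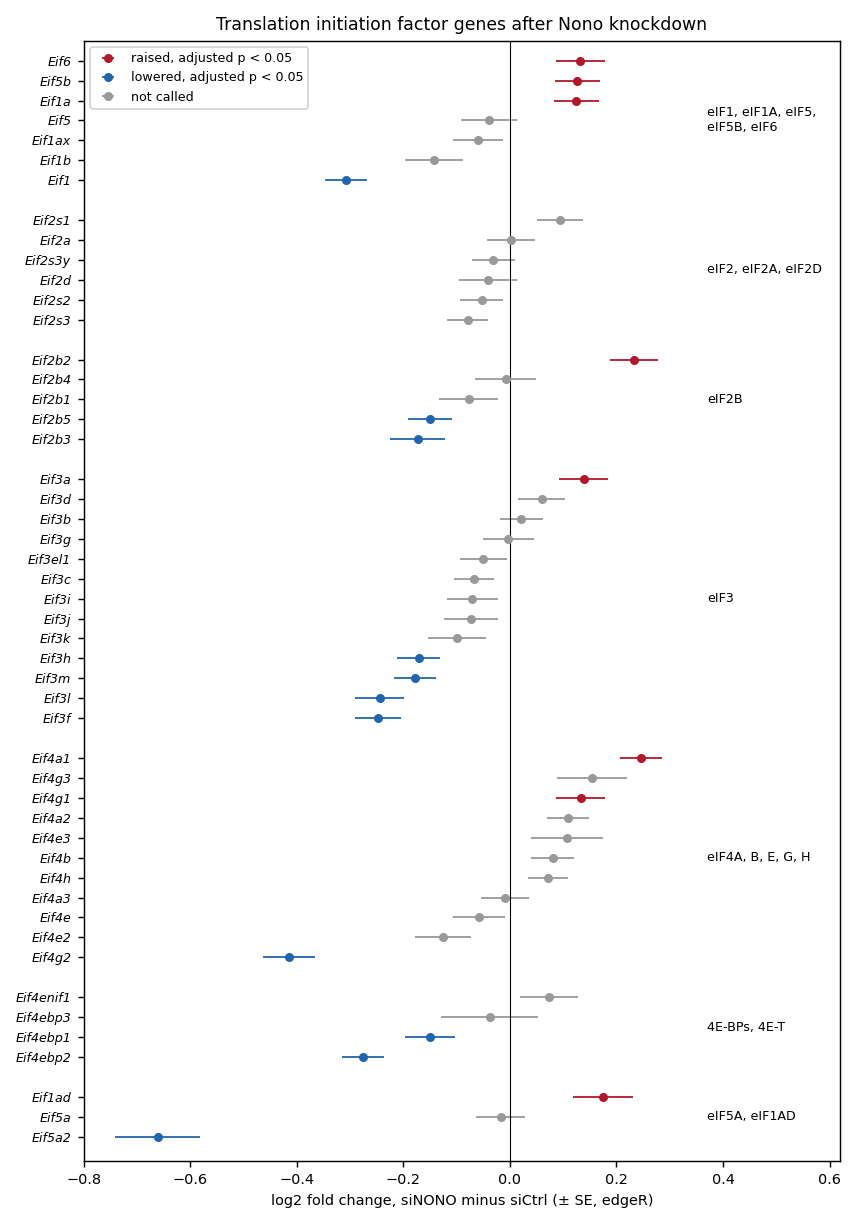
Log2 fold change (siNONO minus siCtrl, horizontal axis) of the 49 initiation factor genes tested, with SE bars, grouped by role down the page and coloured by the edgeR call. The 11 lowered genes lie between -0.66 and -0.15 and the 8 raised genes between 0.12 and 0.25, with 30 genes not called.

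The calls differed in how firmly they stood. Of the lowered genes, 8 (Eif5a2, Eif4g2, Eif1, Eif4ebp2, Eif3f, Eif3l, Eif3m and Eif3h), and of the raised genes 2 (Eif4a1 and Eif2b2), were called in all 21 alternative analyses, the fits without 1 library included. The other 9 lost their call without at least 1 library. The number raised was 2 without siNONO replicate 1, 5 without siNONO replicate 2, 3 without siNONO replicate 3, 5 without siCtrl replicate 1 and 3 without siCtrl replicate 3, against 8 with all libraries. With scaling by total library size the split turned to 14 raised and 8 lowered (63.6% raised, against 42.1%), with log2(FPKM + 1) to 13 and 9 (59.1% raised), and with upper-quartile factors to 3 and 12 (20.0% raised). Scaled by total library size, the median of the initiation factors was 0.01 and that of all genes tested 0.05. In the main analysis these medians were -0.04 and 0.00. With total library size the median of all genes tested thus shifted as well. The splits of all genes under these scalings and without 1 library are not given here. Whether the splits of the initiation factors differ from them was not tested.

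Of 7 genes of scanning and subunit joining, 3 rose and 1 fell, with a median log2 fold change of -0.04. That is 42.9% raised and 14.3% lowered, against 16.2% and 15.9% of all genes tested. Eif1 encodes the factor that keeps the scanning ribosome from stopping at wrong codons. It was at 363, 359 and 358 CPM in siNONO and at 459.9, 439 and 438 CPM in siCtrl, so that the groups did not overlap and the siNONO libraries lay within a few CPM of each other. Its log2 fold change was -0.31 ± 0.04 (edgeR adjusted p = 4.94e-05). Its paralog Eif1b, at 26.6 ± 1.22 CPM in siNONO and 29.4 ± 0.952 CPM in siCtrl (SD, n = 3 each), did not pass (-0.14 ± 0.05; edgeR adjusted p = 0.0595, and 0.0417 with upper-quartile factors). Eif1a, which encodes the partner of eIF1 on the small subunit, rose by 0.12 ± 0.04 (134, 131 and 138 CPM in siNONO; 119, 127 and 124 CPM in siCtrl; edgeR adjusted p = 0.0388). Eif5b, which encodes the GTPase that joins the ribosomal subunits, rose by 0.13 ± 0.04 (edgeR adjusted p = 0.0344). Eif6, whose product keeps the large subunit from joining too early, also rose by 0.13 ± 0.05 (edgeR adjusted p = 0.0410). These rises were near the threshold, and each was lost with upper-quartile factors (adjusted p of 0.0603 for Eif1a, 0.0554 for Eif5b and 0.0657 for Eif6). With the DESeq2 Wald test Eif1a (0.0588) and Eif6 (0.0658) did not pass. Eif1a also lost its call without siNONO replicate 1 (adjusted p = 0.119) or 3 (0.163) and without siCtrl replicate 1 (0.0872) or 3 (0.0735). Eif5b lost it without siNONO replicate 1 (0.0735), 2 (0.0814) or 3 (0.142) and without siCtrl replicate 1 (0.0506) or 3 (0.118). Eif6 lost it in every fit without 1 library (0.0685 to 0.154) except that without siCtrl replicate 1 (0.00789). Eif5, the activator of the eIF2 GTPase, and Eif1ax, a close copy of Eif1a with which it may share reads, did not pass.

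No subunit gene of eIF2 was called in the main analysis, and the median over the 6 genes of eIF2 subunits and tRNA delivery was -0.04. Eif2s1 encodes the alpha subunit, the one that stress kinases phosphorylate. Eif2s1 was at 114, 116 and 115 CPM in siNONO and at 113, 108 and 104 CPM in siCtrl. The siNONO values were all just above the siCtrl values, and the log2 fold change was 0.09 ± 0.04 (edgeR adjusted p = 0.117). It passed with total library size (0.0156), the gene length offset (0.0172) and log2(FPKM + 1) (0.0138), and without siCtrl replicate 1 (0.0323). The beta subunit gene Eif2s2, the gamma subunit genes Eif2s3 on chromosome X and Eif2s3y on chromosome Y, and the alternative tRNA-delivery genes Eif2a and Eif2d lay between -0.08 and 0.00. Eif2s3 was lowered with the gene length offset (adjusted p = 0.0402). Eif2s3 and Eif2s3y are related genes, and how well their reads were told apart was not tested, so the split between them is uncertain. Eif2s3y was at 80.1 ± 0.419 CPM in siNONO and 81.9 ± 1.67 CPM in siCtrl (SD, n = 3 each).

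The exchange factor eIF2B, which recharges eIF2 with GTP, has 5 subunits, and 1 of its mRNAs rose and 2 fell (median -0.08). That is 20% raised and 40% lowered, against 16.2% and 15.9% of all genes tested. Eif2b2, the beta subunit gene, rose: its level was 63.7, 62.9 and 66.3 CPM in siNONO and 54.2, 53.3 and 56.6 CPM in siCtrl, with a log2 difference of 0.23 ± 0.05 (edgeR adjusted p = 0.00134). Eif2b3, the gamma subunit gene, fell: its level was 28.8, 28.8 and 28.2 CPM in siNONO and 34.0, 31.4 and 31.4 CPM in siCtrl, with -0.17 ± 0.05 on the log2 scale (edgeR adjusted p = 0.0192). Eif2b5, the catalytic epsilon subunit gene, fell by 0.15 ± 0.04 on the log2 scale (57.0 ± 0.633 CPM in siNONO and 63.3 ± 0.706 CPM in siCtrl; edgeR adjusted p = 0.0130). In none of these did the groups overlap. The call of Eif2b3 ended without siNONO replicate 1 (adjusted p = 0.0548) or 3 (0.0640) and without siCtrl replicate 1 (0.0636), and that of Eif2b5 without siNONO replicate 1 (0.0630). With total library size neither Eif2b3 (adjusted p = 0.0807) nor Eif2b5 (0.0886) passed, and Eif2b5 missed the threshold with log2(FPKM + 1) (0.0554). Eif2b1 and Eif2b4 did not pass. Per gene length, Eif2b2 was the most abundant subunit mRNA at 40.5 ± 1.29 FPKM in siNONO and 33.3 ± 1.13 FPKM in siCtrl (SD, n = 3 each), and the other 4 lay between 14.9 and 23.0 FPKM in siNONO and between 14.4 and 23.5 FPKM in siCtrl.

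eIF3, the largest initiation factor, holds the small subunit and the cap complex together, and 4 of its 13 tested genes fell while 1 rose (median -0.07). That is 30.8% lowered and 7.69% raised, against 15.9% and 16.2% of all genes tested. Eif3f was at 350.3, 361 and 348 CPM in siNONO and at 440.0, 404 and 413 CPM in siCtrl, a log2 difference of -0.25 ± 0.04 (edgeR adjusted p = 0.000593). Eif3l was at 166, 171 and 162 CPM in siNONO and at 208, 196 and 187 CPM in siCtrl, with -0.24 ± 0.05 on the log2 scale (edgeR adjusted p = 0.00107). The siCtrl libraries spread more than the siNONO libraries for both genes, with siCtrl replicate 1 the highest, and the groups did not overlap. Eif3m was at 235, 246 and 235 CPM in siNONO and at 272, 268 and 269.9 CPM in siCtrl (-0.18 ± 0.04; edgeR adjusted p = 0.00329). Eif3h was at 337, 345 and 329 CPM in siNONO and at 390.4, 374 and 374 CPM in siCtrl (-0.17 ± 0.04; edgeR adjusted p = 0.00521). Eif3a, the large scaffold subunit gene, moved the other way, at 243, 229.8 and 251 CPM in siNONO and at 208, 224 and 226 CPM in siCtrl (0.14 ± 0.05; edgeR adjusted p = 0.0366). Its call ended without siNONO replicate 1 (adjusted p = 0.126) or 3 (0.173) and without siCtrl replicate 1 (0.0861), and with upper-quartile factors (0.0543).

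In the human complex, 8 subunits (a, c, e, f, h, k, l and m) form a core of PCI and MPN domains, and the others are attached around it. The 5 eIF3 genes called encode subunits of this core, a grouping made after the values were seen and therefore not tested. Eif3d, outside the core, was also called, as raised, with total library size (adjusted p = 0.0480) and with log2(FPKM + 1) (0.0426). The median log2 fold change was -0.14 over the 8 core genes, whose values ran from -0.25 to 0.14, and 0.00 over the 5 others (Eif3b, Eif3d, Eif3g, Eif3i and Eif3j), whose values ran from -0.07 to 0.06. Eif3k did not pass, except without siNONO replicate 2 (adjusted p = 0.0455). The summed share of eIF3 genes in all counts was 0.283% ± 0.00158 in siNONO and 0.292% ± 0.00364 in siCtrl (SD over 3 libraries; p = 0.1 in the exact two-sided permutation test, the lowest value possible with 3 against 3). This separation was not particular to eIF3. The cap complex and its helicase cofactors, at 0.287% in siNONO and 0.270% in siCtrl, had the same p in that test. So did eIF2B (0.0220% and 0.0215%) and the eIF4E inhibitors and transporter (0.0284% and 0.0307%). Cytosolic ribosomal protein genes, 89 of them by symbol, took 7.70%, 8.03% and 7.48% of counts in siNONO and 9.54%, 8.58% and 8.81% in siCtrl (exact two-sided permutation p = 0.1), and their part in these values was not tested.

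Subunit E needs care with its name. The gene listed as Eif3e had counts of 0, 2 and 0 in siNONO and 0 in every siCtrl library, below the limit of 3 counts that a count of 0 allows, and was the member not tested. The gene listed as Eif3el1, on the same chromosome 7, had 7623, 8541 and 8339 counts in siNONO and 7340, 7174 and 8198 counts in siCtrl. In the RefSeq gene table of the later assembly GRCr8, Eif3el1 is an older symbol of the protein-coding Eif3e on chromosome 7, and Eif3e an older symbol of a pseudogene there, now Eif3e-ps1. The subunit E mRNA was thus read from Eif3el1, which did not pass (-0.05 ± 0.04, edgeR adjusted p = 0.422). A further protein-coding gene, LOC100365062 on chromosome 1, is described as like subunit 6 of eIF3 and is outside the set by its symbol. It had 836, 931 and 1005 counts in siNONO and 653, 758 and 930 counts in siCtrl. LOC100365062 did not pass either (0.09 ± 0.06, edgeR adjusted p = 0.298), and whether it shares reads with Eif3el1 was not tested.

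In the cap complex the helicase gene Eif4a1 and the scaffold gene Eif4g1 rose, and the scaffold relative Eif4g2 fell, with a median of 0.08 over 11 genes. That is 18.2% raised and 9.09% lowered, against 16.2% and 15.9% of all genes tested. Eif4a1, the main helicase that unwinds the leader of the mRNA, was at 666, 663 and 649 CPM in siNONO and at 566, 555 and 548 CPM in siCtrl. Every siNONO library was well above every siCtrl library, with a log2 difference of 0.25 ± 0.04 (edgeR adjusted p = 0.000278). Its close paralog Eif4a2 was at 277, 266 and 264 CPM in siNONO and at 245, 252 and 251 CPM in siCtrl, without overlap, and missed the threshold (0.11 ± 0.04; edgeR adjusted p = 0.0505). It passed in 8 of the 21 alternatives. Eif4a3, the helicase of the exon junction complex, was at 90.8 ± 2.56 CPM in siNONO and 91.4 ± 3.97 CPM in siCtrl (SD, n = 3 each). The helicase cofactor genes Eif4b (0.08 ± 0.04) and Eif4h (0.07 ± 0.04) did not pass either, although the siNONO libraries were all above the siCtrl libraries. They were raised with total library size (adjusted p = 0.0149 for Eif4b and 0.0173 for Eif4h) and with log2(FPKM + 1) (0.0175 and 0.0117).

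Eif4g2, also known as DAP5, resembles the scaffold eIF4G but lacks the part that binds eIF4E, and serves cap-independent initiation. It was at 381, 363 and 396 CPM in siNONO and at 474, 528 and 518 CPM in siCtrl. The groups stood far apart, and the log2 fold change of -0.41 ± 0.05 had an edgeR adjusted p of 2.45e-05. Eif4g1, the main scaffold, rose: it was at 296, 281 and 316 CPM in siNONO and at 269, 276 and 269 CPM in siCtrl, with 0.13 ± 0.05 as the log2 difference (edgeR adjusted p = 0.0395). The siNONO libraries of Eif4g1 were spread widely, and its call ended in every fit without 1 library (adjusted p from 0.0512 to 0.223) except that without siNONO replicate 2 (0.0174), and with upper-quartile factors (0.0569). Eif4g3 missed the threshold (adjusted p = 0.0865) but was raised without siCtrl replicate 2 (0.0284), with total library size (0.0390) and with no filter on low counts (0.0120).

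The cap-binding protein gene Eif4e was at 56.0, 53.7 and 59.4 CPM in siNONO and at 59.5, 60.0 and 56.6 CPM in siCtrl, with overlapping groups (-0.06 ± 0.05; edgeR adjusted p = 0.400). Its relatives Eif4e2, which encodes a cap-binding repressor, and Eif4e3 did not pass, except that Eif4e2 was lowered without siNONO replicate 2 (adjusted p = 0.0391) or siCtrl replicate 2 (0.0291). Of the 4 genes of eIF4E inhibitors and transport, Eif4ebp1 and Eif4ebp2, whose products hold eIF4E off the scaffold, fell, and the median of the 4 was -0.09. That is 50% lowered and 0% raised, against 15.9% and 16.2% of all genes tested. Eif4ebp2 was at 82.0, 80.5 and 81.7 CPM in siNONO and at 99.0, 97.6 and 99.1 CPM in siCtrl, with replicates less than 2 CPM apart and a log2 difference of -0.28 ± 0.04 (edgeR adjusted p = 0.000128). Eif4ebp1 was at 154, 167 and 156 CPM in siNONO and at 185, 172 and 171 CPM in siCtrl (-0.15 ± 0.05; edgeR adjusted p = 0.0248). The call of Eif4ebp1 ended without siNONO replicate 1 (adjusted p = 0.123) or 3 (0.0930) and without siCtrl replicate 1 (0.0630), with total library size (0.0895), with the gene length offset (0.0699) and with log2(FPKM + 1) (0.0878). Eif4ebp3 (-0.04 ± 0.09) and the eIF4E transporter gene Eif4enif1 (0.07 ± 0.05) did not pass.

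Eif5a2 had the largest fold change of the set. It is the scarcer relative of Eif5a, and both encode factors that carry hypusine and help the ribosome through difficult stretches. Eif5a2 was at 9.77, 8.31 and 8.85 CPM in siNONO and at 14.4, 14.4 and 13.8 CPM in siCtrl, a log2 difference of -0.66 ± 0.08 (edgeR adjusted p = 2.75e-05) that left 63.2% of the siCtrl level. Eif5a, the most abundant gene of the set, was at 728, 754 and 749 CPM in siNONO and at 801, 731 and 726 CPM in siCtrl, with overlapping groups and no call (-0.02 ± 0.05; edgeR adjusted p = 0.805). Eif1ad, a nuclear protein gene named for its eIF1A-like domain, rose, at 29.6, 28.1 and 26.8 CPM in siNONO and at 25.9, 24.3 and 24.7 CPM in siCtrl (0.18 ± 0.06; edgeR adjusted p = 0.0284). That call ended without siNONO replicate 1 (adjusted p = 0.147) or 2 (0.0610) and without siCtrl replicate 2 (0.0842) or 3 (0.0841), and with the DESeq2 Wald test (0.0774).

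**Figure D2:**
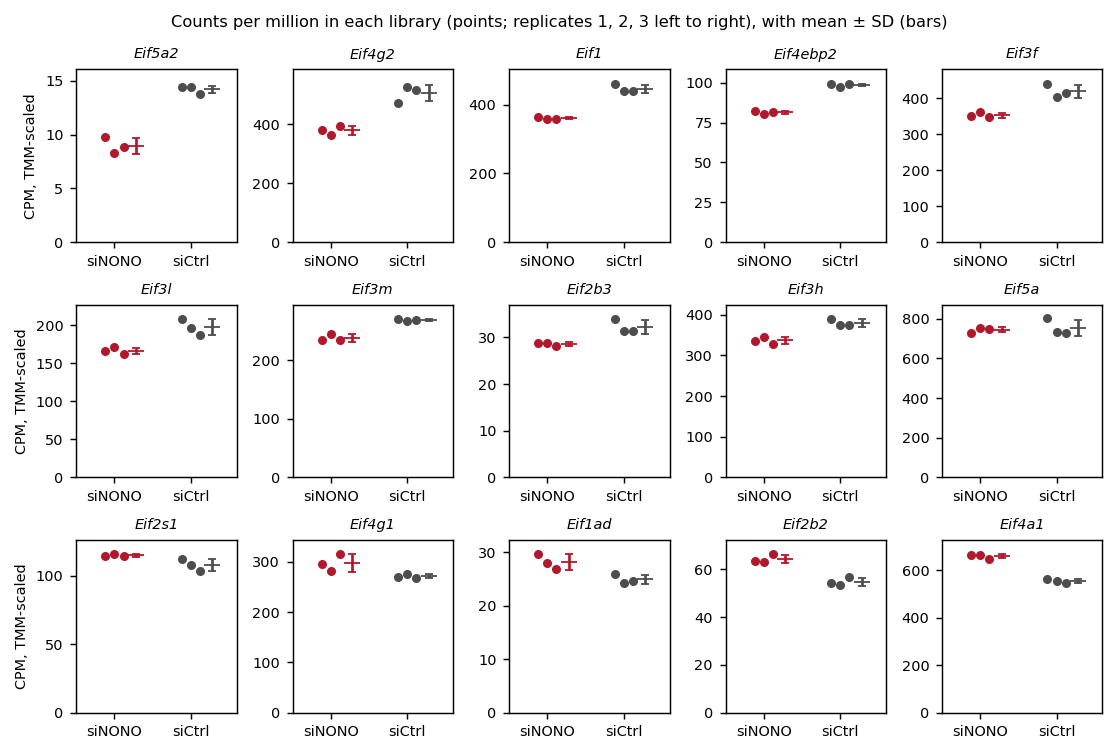
TMM-scaled CPM (vertical axis from 0) of the 15 genes described in full, with a point for each siNONO (left) and siCtrl (right) library and a bar for the mean ± SD. The groups are apart for every gene shown except Eif5a, and the largest fold changes are those of Eif5a2 and Eif4g2.

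Related genes were also compared as ratios of counts within each library, which do not depend on how libraries are scaled. Of 11 pairs, 7 had no overlap between groups, each with a two-sided p of 0.1 in the exact permutation test and 0.157 after adjustment over the pairs. The log2 ratio of Eif4g2 to Eif4g1 was 0.36, 0.37 and 0.33 in siNONO and 0.82, 0.93 and 0.95 in siCtrl, a difference of -0.55 ± 0.04 (SE). As a ratio of FPKM, a level per gene length, Eif4g2 was at 1.51 ± 0.0254 times Eif4g1 in siNONO and at 2.20 ± 0.107 times in siCtrl (SD, n = 3 each). The log2 ratio of Eif5a2 to Eif5a was -6.22, -6.50 and -6.40 in siNONO and -5.80, -5.67 and -5.72 in siCtrl, a difference of -0.65 ± 0.09. Eif4a3 against Eif4a1 differed by -0.25 ± 0.03, Eif1 against Eif1b by -0.16 ± 0.03 and Eif4ebp2 against Eif4ebp1 by -0.13 ± 0.06, the last with its nearest libraries at -0.906 in siNONO and -0.905 in siCtrl. Eif1a against Eif1ax differed by 0.18 ± 0.02 and Eif4a1 against Eif4a2 by 0.14 ± 0.03. The pairs Eif4e2 and Eif4e (-0.07 ± 0.10), Eif4e3 and Eif4e (0.17 ± 0.08), Eif4g3 and Eif4g1 (0.03 ± 0.08) and Eif4h and Eif4b (-0.01 ± 0.02) overlapped between groups.

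**Figure D3:**
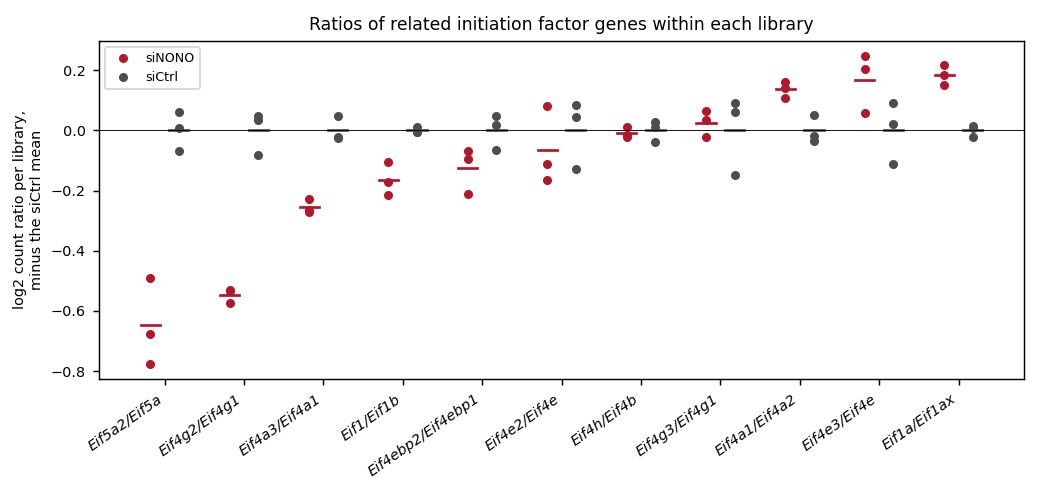
Log2 ratio of the counts of related genes in each library, minus the mean of the siCtrl libraries (vertical axis), for 11 pairs ordered by their difference, with siNONO left and siCtrl right and a line at each mean. By their means, Eif5a2/Eif5a and Eif4g2/Eif4g1 lie lowest in siNONO, and Eif1a/Eif1ax highest.

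Per gene length, the levels of the factors covered a wide range in these cells. Eif5a was the highest at 408 ± 5.92 FPKM in siNONO and 399 ± 16.9 FPKM in siCtrl, followed by Eif1 at 309.7 ± 3.57 FPKM in siNONO and 370.1 ± 5.49 FPKM in siCtrl (SD, n = 3 each). Eif4a1 had rank 3 in siNONO, at 299 ± 4.003 FPKM, and rank 5 in siCtrl, at 243 ± 2.45 FPKM. Eif5a2 was the lowest of the tested genes at 1.48 ± 0.131 FPKM in siNONO and 2.26 ± 0.0600 FPKM in siCtrl. The eIF3 mRNAs, although their proteins are taken up once each in the complex, lay between 23.4 FPKM (Eif3j) and 258 FPKM (Eif3f) in siNONO and between 23.8 and 296 FPKM in siCtrl. Eif4e was at 15.9 ± 0.891 FPKM in siNONO and 16.0 ± 0.536 FPKM in siCtrl, while the mRNA of its inhibitor Eif4ebp1 was at 173 ± 6.40 FPKM in siNONO and 186 ± 5.78 FPKM in siCtrl. Across the 49 tested genes the log2 fold change had a Spearman rho of 0.26 with gene length, against 0.11 over 14151 tested genes with a length. These correlations are across genes, which are not replicates.

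**Figure D4:**
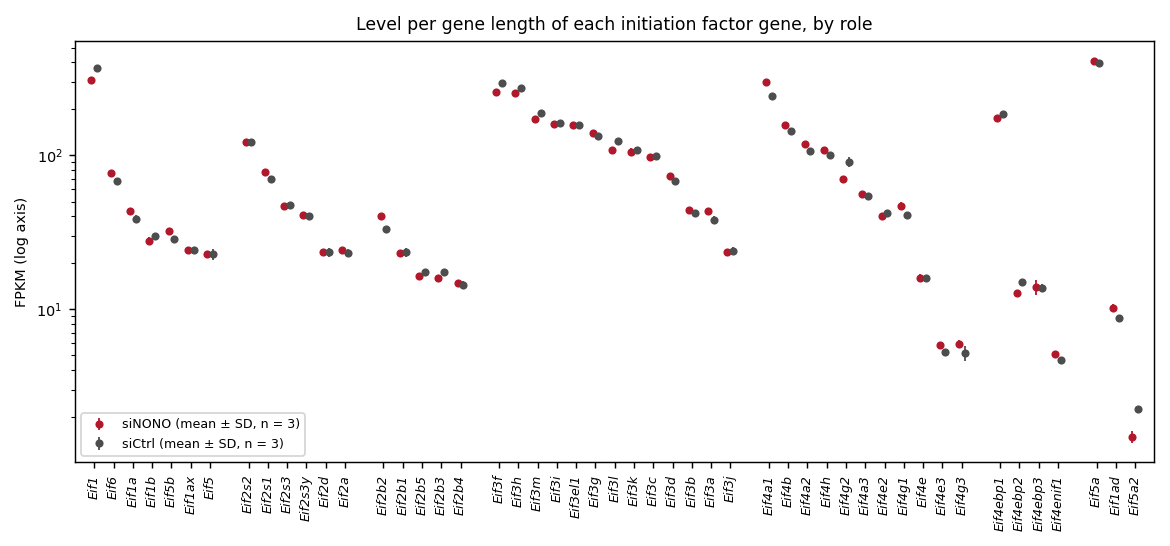
FPKM (log axis) of the 49 tested initiation factor genes, grouped by role and ordered by their siCtrl level, with siNONO left and siCtrl right of each tick as mean ± SD of 3 libraries. Levels run from 1.48 FPKM (Eif5a2, siNONO) to 408 FPKM (Eif5a, siNONO).

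Genes that act on the same pathway under other names were read from lists. These lists were drawn up with earlier results of these data known. Their shares of raised and lowered genes are therefore descriptions and were not tested against those of all genes. Of 21 tested genes of eIF2 phosphorylation and the integrated stress response, 6 rose (28.6%, against 16.2% of all genes tested) and 9 fell (42.9%, against 15.9%), with a median of -0.07 against 0.00 over all genes. Eif2ak2, which encodes the interferon-induced eIF2 kinase PKR, rose: it was at 146, 139 and 143 CPM in siNONO and at 89.5, 82.8 and 68.6 CPM in siCtrl, with 0.83 ± 0.07 on the log2 scale (edgeR adjusted p = 1.50e-06). Of the other kinase genes, named after their values were seen, Eif2ak4 (0.22 ± 0.07; edgeR adjusted p = 0.0225) and Eif2ak1 (0.14 ± 0.04; edgeR adjusted p = 0.0333) rose and Eif2ak3 did not pass (-0.07 ± 0.05). The rises of Eif2ak1 and Eif2ak4 were lost with the DESeq2 Wald test (adjusted p of 0.0672 for Eif2ak1 and 0.0592 for Eif2ak4). Without siNONO replicate 2 or 3, Eif2ak1 was at 0.116 and 0.120, and Eif2ak4 at 0.0734 and 0.0708. Eif2ak1 was also lost without siCtrl replicate 3 (0.113) and with upper-quartile factors (0.0541), and Eif2ak4 without siCtrl replicate 1 (0.0683). Ddit3, the transcription factor CHOP, rose by 0.43 ± 0.08 (132 ± 9.62 CPM in siNONO and 98.2 ± 14.4 CPM in siCtrl; edgeR adjusted p = 0.00114). Atf5, a stress-responsive transcription factor, fell, at 606, 649 and 575 CPM in siNONO and at 938, 830.5 and 874 CPM in siCtrl (-0.53 ± 0.05; edgeR adjusted p = 6.54e-06). Some further members are named with their values already known. Atf4, the central transcription factor of this response, missed the threshold (-0.11 ± 0.04; edgeR adjusted p = 0.0576). It was lowered with the DESeq2 Wald test (0.0462), upper-quartile factors (0.0435), limma-voom (0.0497) and the gene length offset (0.0281), and without siNONO replicate 2 (0.0289) or siCtrl replicate 3 (0.0486). Chac1 (-0.41 ± 0.07) and Trib3 (-0.39 ± 0.05) fell. So did the serine synthesis genes Psat1 (-0.40 ± 0.04) and Phgdh (-0.32 ± 0.05) and the asparagine synthetase gene Asns (-0.23 ± 0.04). These lowered genes were singled out of a list in which 6 genes rose, Ddit3 among them, and 6 did not pass. They do not stand for the list, and the activity of Atf4 was not tested. Ppp1cb, a catalytic subunit of protein phosphatase 1, rose by 0.36 ± 0.04.

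Of 14 elongation and termination factor genes, 3 rose (21.4%, against 16.2% of all genes tested) and 6 fell (42.9%, against 15.9%), with a median of -0.05. The eEF1 subunit genes Eef1b2 (-0.29 ± 0.05) and Eef1g (-0.27 ± 0.05) and the translocase gene Eef2 (-0.23 ± 0.04) fell most. Eef2 was at 4415, 4502 and 4415 CPM in siNONO and at 5231, 5092 and 5328 CPM in siCtrl (edgeR adjusted p = 0.000671). Of 19 partners of the cap complex (median 0.01), 2 rose (10.5%) and 4 fell (21.1%), not far from the shares of all genes, among them the poly(A)-binding protein gene Pabpc4, at 451 ± 11.1 CPM in siNONO and 578 ± 17.5 CPM in siCtrl (-0.36 ± 0.04; edgeR adjusted p = 2.07e-05). The eIF4E kinase gene Mknk1 fell (-0.21 ± 0.06), which did not hold without siNONO replicate 3 (adjusted p = 0.0502) or siCtrl replicate 3 (0.0708) nor with total library size (0.0530) or log2(FPKM + 1) (0.123), and Ctif, a scaffold of the nuclear cap-binding complex, rose (0.26 ± 0.05).

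Of 9 other initiation proteins, 1 rose and 1 fell (11.1% each, below the 16.2% and 15.9% of all genes; median -0.03). Rack1, a protein of the small ribosomal subunit, fell, at 1476, 1541 and 1473 CPM in siNONO and at 1949, 1761 and 1825 CPM in siCtrl (-0.30 ± 0.05; edgeR adjusted p = 0.000221). Mtif2, the mitochondrial initiation factor gene, rose by 0.27 ± 0.09 (edgeR adjusted p = 0.0311), a call that ended without siNONO replicate 2 (0.0932) or 3 (0.103) and without siCtrl replicate 1 (0.0994) or 3 (0.0574) and with log2(FPKM + 1) (0.0522). Of 18 mTORC1 signalling genes, 4 rose and 4 fell (22.2% each, near the 16.2% and 15.9% of all genes; median 0.02). The mTOR inhibitor gene Deptor fell, at 16.1, 15.6 and 14.5 CPM in siNONO and at 20.1, 22.0 and 20.7 CPM in siCtrl (-0.44 ± 0.07; edgeR adjusted p = 0.000172). The scaffold gene Lamtor3 fell by 0.25 ± 0.05. Tsc1, which encodes a brake on mTORC1, rose by 0.24 ± 0.06, except without siNONO replicate 1 (adjusted p = 0.0514) or 3 (0.0531).

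Several of these genes have copies named as pseudogenes, and how alike the sequences are was not measured. By the GRCr8 annotation, 28 of the 50 genes had named pseudogene copies, 77 in all. Eif5 had 11, Eif4e had 10, and Eif1 and Eif4a1 had 8 each. In the same annotation, 15 genes overlapped another protein-coding or long noncoding gene, among them Eif4a1, which overlaps Eif4a1l. Whether the authors' counting split or dropped reads of such copies, or used strand, is not given in the sources used here, so the values of these genes are uncertain to that extent.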

How the data were processed

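RNA sequencing of 3 siNONO and 3 siCtrl libraries was analysed from deposited tables. HISAT2, edgeR and build mRatBN7.2 are named in the submitters' processing notes, and the counting tool, its strand setting and versions are not given there. The count table deposited by the authors holds whole-number read counts of 21378 genes, and the FPKM table deposited by the authors holds 21081 genes scaled by gene length and library size. There were 0 columns of other samples. With 27792357 to 33365588 counts per library, 3 counts correspond to 0.0899 to 0.108 CPM, a limit for counting error only.

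Genes passing filterByExpr (14412) were scaled by TMM and tested with edgeR 4.0.16 in R 4.3.3 (quasi-likelihood test, two-sided, 4 residual degrees of freedom, Benjamini-Hochberg adjustment over all genes tested, threshold 0.05). SE came from the log2 fold change and F (their size over √F). Gene lengths were worked out by dividing counts by FPKM (from 0.1 FPKM up) and by the library total. Single values were compared by exact permutation (scipy 1.17.1). Libraries of a group were not copies (chi-square per degree of freedom 3.18 to 7.58). The edgeR fit was tested on simulated data, in 5 draws for the 14412 genes of siNONO against siCtrl with 200 changed. It recovered 42.0% of 1.2-fold, 73.6% of 1.5-fold and 88.8% of 2-fold changes, with 7.69% false among its calls. Far more genes, 4630, were called in the data, so these rates may not hold there.

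Alternatives were other scalings, filters and fits (DESeq2 1.42.0, limma 3.58.1), a replicate block, a gene length offset, FPKM values, an adjusted p of 0.01 and fits without 1 library. The members and lists were chosen with earlier results of these data known, and Eif3el1 was placed with eIF3 once the table was seen. Values per library are given for the 12 largest changes past the threshold, the member with the lowest p of a role without one of these, and pairs whose ratio differed by at least 0.3 without overlap. Up to 3 members are named per pathway list. Other genes with values per library were singled out after their values were seen. RefSeq's gene table for GRCr8, another build, gave names, copies and neighbours only (50 of 50 matched, 2 by an older symbol).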

Additional observations from a re-analysis of the deposited data

How the results depend on the processing

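Of the 19 initiation factor genes called, 10 were called in the same direction in all 21 alternatives. The count of raised genes, 8 in the main analysis, was 14 with total library size, 3 with upper-quartile factors, 5 with the DESeq2 Wald test, 13 each with log2(FPKM + 1), log2(FPKM + 0.1) and at least 1 FPKM in 3 libraries, and 2 at an adjusted p of 0.01. The count of all genes called, 4630, was 2852 at an adjusted p of 0.01 and 3369 to 4386 without 1 library. Without 1 library, 2 to 6 initiation factor genes were raised and 8 to 13 lowered. Scaling moves all genes tested, and whether the counts under other scalings are particular to these genes was not tested. The lowered count stayed within 1.5 times of 11 in every alternative. The median log2 fold change of initiation factor genes tested, -0.0389, was 0.0115 with total library size, 0.0101 with log2(FPKM + 1), 0.0104 with log2(FPKM + 0.1) and 0.0101 with at least 1 FPKM in 3 libraries, and lay between -0.0436 and -0.0187 without 1 library. The log2 fold change of Eif5a, not called, turned to 0.0342 with total library size, 0.0332 with log2(FPKM + 1), 0.0333 with log2(FPKM + 0.1) and 0.0332 with at least 1 FPKM in 3 libraries, and lay between -0.0433 and 0.0299 without 1 library. The signs of 9 further uncalled genes near 0 also turned. They were Eif3el1 (0.00184, 0.000463, 0.000467 and 0.000463 in the same order), Eif2s3y (0.0202, 0.0181, 0.0185 and 0.0181), Eif4ebp3 (0.0130, 0.0101, 0.0104 and 0.0101), Eif4a3 (0.0427, 0.0404, 0.0410 and 0.0404), and, with total library size, Eif5 (0.0115), Eif2d (0.0106), Eif2b4 (0.0436) and Eif3g (0.0482), and, with upper-quartile factors, Eif2a (-0.0108). Eif4ebp3 and Eif4a3 also did so with the gene length offset (0.0379 for Eif4ebp3 and 0.0113 for Eif4a3) and with that offset and the replicate block (0.0373 and 0.0111), and ran without 1 library from -0.0895 to 0.0496 for Eif4ebp3 and from -0.0319 to 0.0275 for Eif4a3. The cause was not tested. Same-numbered libraries did not deviate together (correlations of -0.05, -0.09 and -0.01). These correlations cannot show whether same-numbered libraries were handled together. A replicate block left 3 raised and 10 lowered, without Eif1a (adjusted p = 0.0996), Eif5b (0.0923), Eif6 (0.103), Eif3a (0.0824), Eif4g1 (0.102) and Eif4ebp1 (0.0684), nor Eif2ak1 (0.0773). With the gene length offset and the replicate block 6 were raised, Eif4g3 (0.0494) among them, and 10 lowered. Differences of paralog ratios without 1 library, and from FPKM, kept their direction in all 7 pairs whose groups did not overlap. The test recovered 42.0% of simulated 1.2-fold changes, but far fewer genes were changed there than were called in the data. That share may therefore not hold here. The genes not called lay between -0.14 and 0.15 and may still differ.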
